A study of Tupaia belangeri with 15 samples.

Results

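The genes of glutamate release, reception and uptake were followed across the cell classes of the tree shrew (TS, Tupaia belangeri) retina and across 3 stages of postnatal life. The set held 31 genes chosen by name: the subunits of the AMPA, kainate, NMDA and delta receptors, 6 metabotropic receptors, the 3 vesicular glutamate transporters and 5 glutamate transporters of the plasma membrane. Of these, 29 had at least 1 unique molecular identifier (UMI) among the 64440 of 83605 annotated features that had any. GRIN1 and GRIN3B were read from the copies that the annotation names GRIN1li1 and GRIN3Bli1, since the features of the plain name held 0 UMIs. GRIK1 was read from its copy GRIK1li1, which held 1535536 UMIs where the feature named GRIK1 held 32, a departure from strict use of the plain name. GRIN2D was found only as antisense features and was left out. GRM2, a receptor that lowers cyclic AMP, was listed with 0 of 467736966 UMIs, which allows a level of up to 0.00641 counts-per-million (CPM; 3 UMIs of the total, counting error only).

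Single-nucleus RNA had been sequenced from frozen whole retinas of infant, mature and senile animals, 5 retinas per stage (Infancy, Mature and Senile 1 to 5), none of them treated or modified as far as the labels say. The labels give no strain, sex or age in time units, and each retina was taken as 1 sample. The study gives the ages: infant animals were a month or more old, mature animals some years and senile animals several years older. Infant and mature animals came from the same supplier and senile animals from another, so senile stage and source cannot be told apart. The matrices of 7 retinas (Infancy 1 to 3, Mature 1 and 2, Senile 1 and 2) name Cell Ranger version 6.1.2 and those of the other 8 name version 7.0.1, and the same 7 retinas are labelled polyA RNA and the others total RNA.

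Glutamate is the transmitter of photoreceptors, bipolar cells (BCs) and retinal ganglion cells (RGCs), while most horizontal cells (HCs) and amacrine cells (ACs) use inhibitory transmitters and receive glutamate. Photoreceptors release it in the dark, and the receptor on the BC dendrite sets the sign of the response: OFF BCs carry AMPA and kainate receptors, whose channels open with glutamate, and ON BCs carry the metabotropic receptor mGluR6, whose signal closes the TRPM1 channel. Glutamate is then cleared by transporters of the SLC1 family, mainly into Müller cells, the radial glia of the retina.

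Nuclei were assigned to a class by marker genes among which no receptor or transporter of the set took part. Of 119765 barcodes that passed the filters, 71962 (60.1%) were assigned: 24383 BCs, 15610 cones, 15409 ACs, 6754 Müller cells, 5969 RGCs, 1188 HCs, 1080 astrocytes, 893 rods and 676 microglia, while 6549 nuclei with markers of a second class were left out. Libraries held 13429873 to 58734300 UMIs, and any pair of retinas shared 4 to 30 barcodes. Rods came from 14 retinas, because Senile 1 had 0 rod nuclei, and the 676 microglia summed to 1017193 UMIs, so levels in these classes are the least precise. Markers of a class were also read at a low level in the others. The cone markers ARR3, PDE6C, OPN1LW and GNAT2 stood in the other classes at 1.13 to 2.16% of their cone level, Müller cell markers at 1.01 to 3.28% and RGC markers at 3.27 to 7.62%. These markers also took part in the assignment of nuclei. Whether free RNA of the suspension or misassigned nuclei gave these levels was not tested. A level of a few percent of the highest class is therefore not read as expression here. Of the marker lists, that of ACs was also high in cones and rods (960 and 1288 CPM against 2048 CPM in ACs), nearly all of it MEIS2, and stood at 512 CPM in HCs, mostly TFAP2B and TFAP2A (327.7 and 102.2 CPM). CHAT and SLC18A3, genes of cholinergic ACs, stood at 34.4 and 17.4 CPM in HCs, against 38.9 and 27.6 CPM in ACs. Whether such ACs entered the HC class was not tested. The pigment epithelium marker RPE65 stood at 375 CPM in rods, while the others of its list, BEST1, MLANA and PMEL, stood at 0, 0.173 and 0 CPM. The BC list stood at 1166 CPM in RGCs, 692 CPM in rods and 664 CPM in astrocytes (6121 CPM in BCs). CA10 gave 1076 CPM of it in RGCs, and PRKCA 480 CPM in rods and 441 CPM in astrocytes. In Müller cells the astrocyte list stood at 553 CPM (6939 CPM in astrocytes), mostly AQP4 and SLC14A1 (261.8 and 180.4 CPM). The endothelium list stood at 448 CPM in Müller cells, its highest class. FLT1 gave 434.1 CPM of it, and PECAM1, CLDN5, VWF and CDH5 stood there at 12.8, 1.01, 0.263 and 0 CPM. The class levels below are CPM of a gene over all UMIs of the summed nuclei of a class in a retina. They are not corrected for gene length, so each gene was compared between classes and not with other genes.

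Each class was compared with the mean of the other 8 classes in 1 fit across retinas (edgeR's quasi-likelihood test with retina as a block and Benjamini-Hochberg adjustment over 13925 features), and a gene was called higher or lower at an adjusted p under 0.05 and a log2 fold change over 1 in size. Of the 29 genes, 27 had enough UMIs to be tested (all but GRIN3B and SLC1A6). Each of the 27 was called higher in at least 1 class and lower in at least 1. Over all features, 11.2 to 19.2% were called higher in a given class, and the share with a call in any class was not counted. ACs and RGCs held the widest sets. In ACs 19 genes were called higher and 3 lower, where 18.8% and 5.9% of all features were called, and the median log2 fold change of the 27 was 1.87 against 0.14 over all features. In RGCs 18 were higher and 4 lower (background 19.2% and 6.25%, median 1.29 against 0.12). In BCs 14 were higher and 2 lower (background 15.7% and 7.68%, median 1.08 against 0.13).

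In the classes that release glutamate to BCs the direction was the other way. In cones 5 genes were called higher and 16 lower (background 18.6% and 18.8%, median -1.45 against 0.11), and in rods 3 were higher and 13 lower (background 11.5% and 20.9%, median -1.44 against -0.26). HCs had 8 higher and 8 lower (background 14.1% and 10.1%, median -0.23 against -0.02). Among glia, Müller cells had 4 higher and 4 lower (background 18% and 7.76%, median -0.33 against 0.05) and astrocytes 6 higher and 15 lower (background 15.4% and 13.6%, median -1.32 against -0.20). Microglia had 0 higher and 22 lower (background 11.2% and 30.6%, median -2.24 against -0.65), and the 0 held at an unadjusted p under 0.05 and with DESeq2, which called 19 lower. GRIN3A, with 0 UMIs in microglia of all 15 retinas, is among these 22 through its fitted value alone, and with GRIN3A at the level that 3 UMIs would give (2.95 CPM) the median is -2.21.

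**Figure D1:**
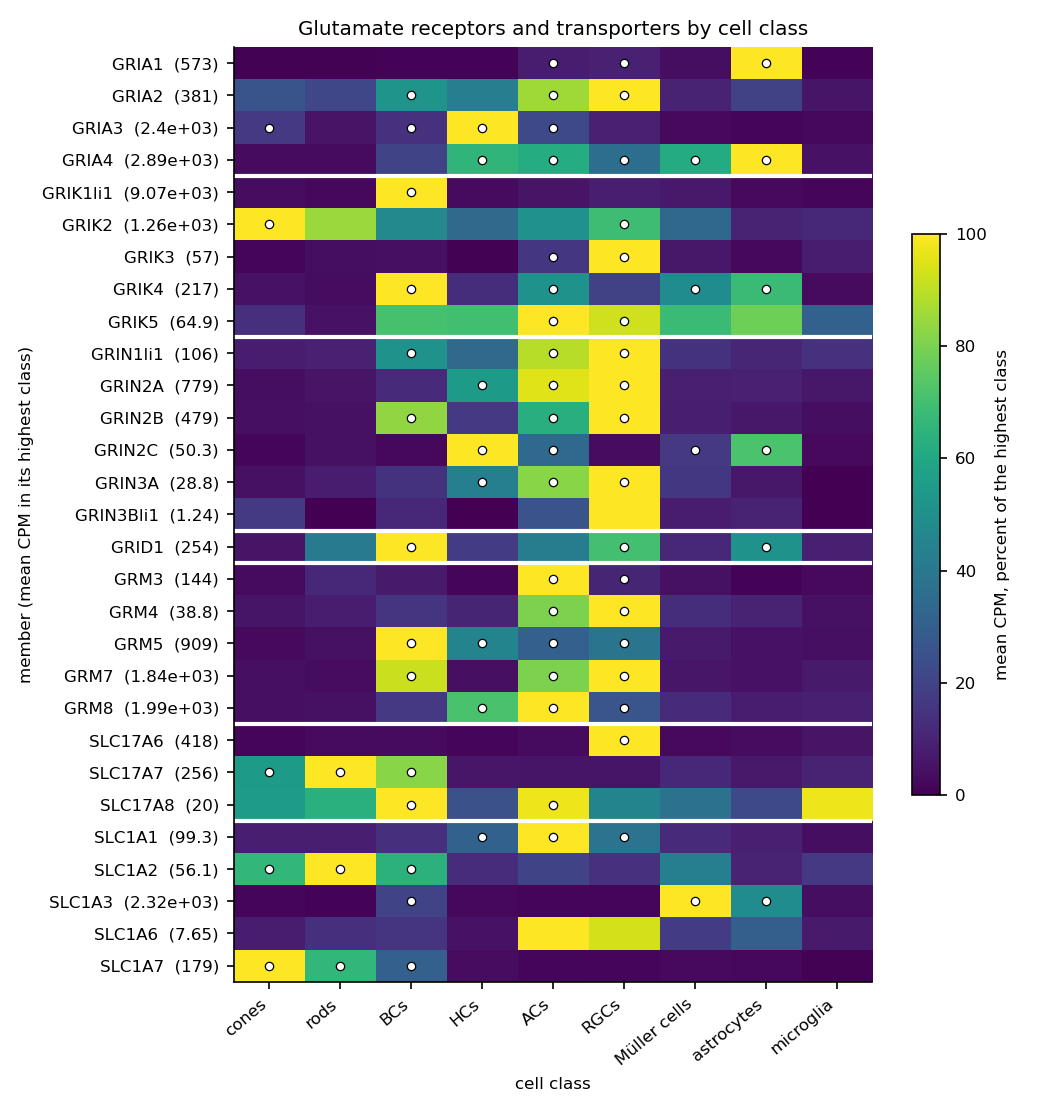
Mean level of each gene in each class (CPM over 14 or 15 retinas), drawn as a percent of the class where that gene is highest, with genes grouped by family and white circles marking classes where it was called higher than the mean of the other classes. AC and RGC columns are filled over most of the receptor rows, SLC1A7 stands in the photoreceptors and BCs, and SLC1A3 stands in Müller cells and astrocytes.

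AMPA receptors carry most of the fast glutamate current, and their subunits divided the classes. GRIA3 was highest in HCs. It ranged over the 15 retinas from 1499.9 to 3450 CPM in HCs (median 2313), while the next class, ACs, ranged from 430.3 to 619 CPM. No AC value reached the lowest HC value, and the log2 fold change of HCs against the mean of the other classes was 4.20 (SE 0.076, adjusted p = 4.43e-87). GRIA3 was also called higher in ACs (1.75), cones (1.36) and BCs (1.08), on the same scale. Antisense features of the GRIA3 locus held 16.1% as many UMIs as GRIA3 itself, the highest share among the AMPA subunits.

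GRIA1 was concentrated in astrocytes. Its level ranged from 376.9 to 989.1 CPM there (median 563.5) and from 28.8 to 93.7 CPM in RGCs, the next class. The groups did not overlap, and GRIA1 had the largest log2 fold change of the set among genes called higher (5.92, SE 0.15, adjusted p = 3.73e-71). RGCs and ACs, at 53.1 ± 15.5 and 44.4 ± 8.57 CPM (SD, n = 15), were not told apart within retinas (adjusted p = 0.15).

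GRIA4 was high in glia as well as in neurons. Astrocytes held 2894 ± 847 CPM, HCs 1893 ± 272 CPM, ACs 1793 ± 282 CPM and Müller cells 1784 ± 463 CPM (SD, n = 15). Astrocytes were above HCs (log2 difference 0.44, adjusted p = 1.84e-04), whereas HCs and ACs, and ACs and Müller cells, were not told apart within retinas (adjusted p = 0.78 and 0.997). Cones and rods held the least, at 79.9 ± 38.3 and 89.3 ± 51.2 CPM.

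GRIA2, the subunit that makes AMPA channels nearly impermeable to calcium, was measured in all retinas of every neuronal class. It ranged from 243.9 to 476.6 CPM in RGCs (median 378.5), from 268.4 to 407.9 CPM in ACs (median 324) and from 160 to 257.5 CPM in BCs (median 199.8). RGCs and ACs overlapped widely although RGCs were higher within retinas (log2 difference 0.19, adjusted p = 0.0077), and the lowest AC retina lay above the highest BC retina. HCs ranged from 90.7 to 250.3 CPM, cones from 74.2 to 133.8 CPM and rods from 51.6 to 128.1 CPM. In Müller cells GRIA2 was called lower (log2 fold change -1.61), with 18.7 to 79.8 CPM.

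The share of GRIA2 among the UMIs of GRIA1 to GRIA4 was described without a test. It was 22.6 ± 2.91% in RGCs, 17.7 ± 3.97% in cones, 17.4 ± 2.3% in BCs and 12.3 ± 2.1% in ACs (SD over 15 retinas), and 28.1 ± 8.82% in rods (n = 14). In rods GRIA3 and GRIA4 averaged 127 and 89.3 CPM, and in cones GRIA4 averaged 79.9 CPM, a few percent of their highest class. The rod and cone shares are therefore not ranked against the others. GRIA3 in Müller cells and astrocytes (61.6 and 34.8 CPM) was also at a few percent. It made up 3.41 and 0.995% of the AMPA subunit UMIs there. HCs, at 3.7 ± 1.12%, Müller cells, at 2.08 ± 1.01%, and astrocytes, at 2.16 ± 0.832%, had the lowest shares, and their highest retinas (6.35, 4.47 and 3.97%) lay under the lowest AC retina (8.59%). GRIA3 made up 67.3 ± 9.64% of the AMPA subunit UMIs in cones and 53.1 ± 6.6% in HCs, where GRIA4 made up 43.1 ± 6.4%, and GRIA4 made up 93.4 ± 1.97% in Müller cells and 80.2 ± 4.63% in astrocytes.

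**Figure D2:**
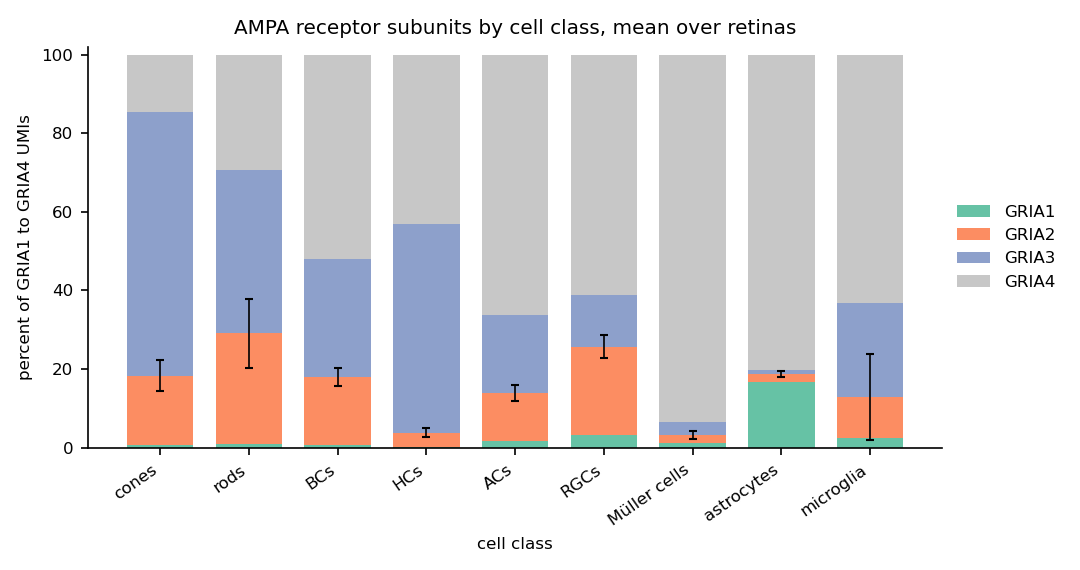
Stacked bars give the mean share (percent) of GRIA1, GRIA2, GRIA3 and GRIA4 among their summed UMIs in each class, over 14 retinas for rods and 15 for other classes, with error bars for the SD of the GRIA2 share. The GRIA2 segment is largest in rods and RGCs and under 4% in HCs, Müller cells and astrocytes, and Müller cells are nearly filled by GRIA4. GRIA3 and GRIA4 in rods, and GRIA4 in cones, lie at a few percent of their highest class.

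Among the kainate receptors, GRIK1 marked BCs. Its level ranged from 7160.5 to 11537 CPM over the 15 BC samples (median 8833), while the highest sample of any other class was 1539.6 CPM, in Müller cells. The groups lay far apart, and the log2 fold change of BCs was 5.06 (SE 0.13, adjusted p = 8.93e-69). The mean in the other classes was 1.65 to 8.35% of the BC mean, a range that overlaps the marker shares given above. In RGCs, Müller cells and ACs, next in order at 758 ± 239, 617 ± 446 and 490 ± 219 CPM (SD, n = 15), neighbouring classes were not told apart within retinas (adjusted p = 0.18 and 0.17).

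GRIK2 was instead highest in cones, at 774 to 2055 CPM (median 1302), which overlapped with rods, at 620 to 1932 CPM (median 1030.2), and RGCs, at 483 to 1267 CPM (median 936). Cones (1.86, SE 0.097, adjusted p = 6.85e-38) and RGCs (1.14, SE 0.10, adjusted p = 3.57e-19) were called higher, and rods, at a log2 fold change of 0.998, fell short of the fold required. Rods and RGCs were not told apart within retinas (log2 difference -0.12, adjusted p = 0.52). GRIK3 was called higher in RGCs (4.83, SE 0.14) and ACs (1.87), with 57 ± 22 CPM in RGCs and 9.03 ± 4.64 CPM in ACs. The auxiliary subunits GRIK4 and GRIK5, which form channels only together with GRIK1 to GRIK3, differed in spread: GRIK4 was called higher in BCs (2.92), astrocytes (2.00), ACs (1.81) and Müller cells (1.64), and GRIK5 in ACs (1.42) and RGCs (1.29) alone.

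NMDA receptors need the GRIN1 subunit together with a GRIN2 or GRIN3 subunit. All 5 NMDA subunits tested were called higher in ACs and 4 of 5 in RGCs (background 18.8% and 19.2%), while 4 of 5 were called lower in cones (background 18.8%). GRIN1 was highest in RGCs (106 ± 61.8 CPM) and ACs (95.2 ± 56.2 CPM, SD, n = 15), which were not told apart within retinas (adjusted p = 0.073), and BCs followed at 54.4 ± 17.8 CPM. Its wide SD goes with the 2 Cell Ranger versions, as given at the end.

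GRIN2A and GRIN2B, which set the kinetics of the NMDA current, were distributed differently. GRIN2A ranged from 338 to 1227 CPM in RGCs (median 799), from 463 to 893 CPM in ACs (median 758) and from 165 to 787 CPM in HCs (median 374). BCs, at 47.6 to 222 CPM (median 82.4), overlapped HCs only at their upper end. The log2 fold changes were 3.19 (SE 0.10) in RGCs, 3.18 (SE 0.099) in ACs and 2.27 (SE 0.14) in HCs, and -0.21 (SE 0.14, adjusted p = 0.16) in BCs.

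GRIN2B, by contrast, stood as high in BCs as in ACs or above. It ranged from 256 to 608 CPM in RGCs (median 499), from 324 to 442 CPM in BCs (median 411) and from 238 to 366 CPM in ACs (median 304), and was called higher in the 3 classes (3.23, 3.03 and 2.52). RGCs and BCs were not told apart within retinas (adjusted p = 0.082). In HCs GRIN2B reached 79.3 ± 42.5 CPM and was not called (0.40, adjusted p = 0.032). As a share of GRIN2A and GRIN2B UMIs, GRIN2A thus made up 84.7 ± 3.87% in HCs, 70.9 ± 3.11% in ACs and 61.2 ± 5.54% in RGCs but 18.9 ± 6.88% in BCs (SD, n = 15).

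The less common subunits were sparse. GRIN2C was called higher in HCs (4.10, SE 0.24), astrocytes (2.93), ACs (2.20) and Müller cells (1.08), with 50.3 ± 43 CPM in HCs. GRIN3A, which lowers the calcium flow of NMDA channels, was called higher in RGCs, ACs and HCs, with 28.8 ± 7.87, 23.7 ± 6.23 and 12.4 ± 12 CPM (SD, n = 15). Its fold changes are left out, since the mean compared with takes in microglia, where it had 0 UMIs. Its antisense features held 25.1% as many UMIs. GRIN3B had 318 UMIs in all and at most 1.24 CPM as a class mean. The delta receptor GRID1, a synaptic organizer rather than a glutamate-gated channel, was called higher in BCs (2.43, SE 0.079), RGCs (1.75) and astrocytes (1.15).

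The metabotropic receptors act through G proteins and mostly tune release. All 5 that were tested were called higher in ACs and in RGCs (background 18.8% and 19.2%). In cones 4 were called lower, in rods 3, in astrocytes 4 and in microglia 4 (background 18.8, 20.9, 13.6 and 30.6%). GRM3, coupled to inhibition of cyclic AMP, led in ACs: its level ranged from 87.7 to 202 CPM there (median 134). Rods, next by mean, ranged from 0 to 83.8 CPM over 14 retinas (median 6.49), and RGCs from 6.82 to 22.1 CPM. The highest rod sample lay just under the lowest AC sample, and the log2 fold change was 4.79 (SE 0.10, adjusted p = 1.54e-77). GRM8, a presynaptic receptor, ranged from 1483 to 2338 CPM in ACs and from 527 to 2447 CPM in HCs, so that the classes overlapped while ACs were higher within retinas (log2 difference 0.57, adjusted p = 0.0018).

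GRM7, a low-affinity receptor of the release site, was shared by RGCs (1843 ± 312 CPM), BCs (1693 ± 286 CPM) and ACs (1478 ± 201 CPM, SD, n = 15), and neither neighbouring pair was told apart within retinas (adjusted p = 0.76 and 0.085). HCs, at 76.1 ± 36 CPM, were called lower (-1.57). GRM5, which signals through calcium release, was highest in BCs, where it ranged from 746 to 1016 CPM (log2 fold change 3.62, SE 0.083), followed by HCs at 155 to 889 CPM. GRM4 was called higher in RGCs (3.32, SE 0.14) and ACs (3.01), with 38.8 ± 13.7 and 31.1 ± 7.46 CPM.

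The vesicular transporters load glutamate into synaptic vesicles, and VGLUT2 led in RGCs and VGLUT1 in photoreceptors and BCs. SLC17A6 (VGLUT2) ranged from 154 to 715 CPM in RGCs (median 343), while the highest sample of any other class was 60.3 CPM, in microglia. The ranges were separate, with a log2 fold change of 5.33 (SE 0.085, adjusted p = 8.52e-93). SLC17A7 (VGLUT1) ranged from 84.5 to 482 CPM in rods (median 216), from 78.3 to 415 CPM in BCs (median 167) and from 80.9 to 207 CPM in cones (median 133). The 3 classes overlapped, all were called higher (2.67, 2.77 and 2.27), and rods and BCs were not told apart within retinas (adjusted p = 0.63). The highest sample elsewhere was 60.7 CPM, in Müller cells. SLC17A8 (VGLUT3), the transporter of a small group of ACs, was low in every class, with 20 ± 7.09 CPM in BCs and 19.5 ± 9.49 CPM in ACs (log2 fold changes 1.26 and 1.09).

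The transporters of the plasma membrane differed in the classes where they were highest. SLC1A3 (EAAT1, known as GLAST), the main uptake carrier of Müller cells, ranged from 1313 to 3294 CPM in Müller cells (median 2201) and from 704 to 1576 CPM in astrocytes (median 1094). The classes overlapped a little, Müller cells were above astrocytes within retinas (log2 difference 1.25, adjusted p = 1.99e-16), and both were called higher (5.02, SE 0.080, and 3.61, SE 0.11). BCs were called higher too (2.51), at 311 to 650 CPM, or above every sample of the 6 remaining classes, the highest of which was 151 CPM in microglia. Antisense features of SLC1A3 held 23.8% as many UMIs.

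SLC1A7 (EAAT5), a carrier that also works as a chloride channel, was highest in photoreceptors and was also called higher in BCs (2.85). It ranged from 105 to 287 CPM in cones (median 175), from 29.7 to 258 CPM in rods (median 115) and from 26.3 to 77.2 CPM in BCs (median 56.2). It had the largest log2 fold change of the set in cones (4.83, SE 0.096, adjusted p = 4.71e-83) and in rods (3.69, SE 0.21, adjusted p = 5.38e-34), and cones were above rods (log2 difference 1.01, adjusted p = 2.13e-09). The cone marker list stood in rods at 405 CPM against 9312 CPM in cones.

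SLC1A2 (EAAT2, known as GLT-1) was called higher in the same classes, with 56.1 ± 25.3 CPM in rods (n = 14), 37.1 ± 12.1 CPM in cones and 35.9 ± 14.4 CPM in BCs (SD, n = 15; log2 fold changes 2.03, 1.74 and 1.52), and rods and cones were not told apart within retinas (adjusted p = 0.19). SLC1A1 (EAAT3) was highest in ACs at 99.3 ± 17.1 CPM (3.09, SE 0.075) and called higher in RGCs (1.47) and HCs (1.34). SLC1A6 (EAAT4) was not tested, and its class means were 7.65 ± 1.64 CPM in ACs, 7.16 ± 2.01 CPM in RGCs and at most 2.33 CPM elsewhere.

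**Figure D3:**
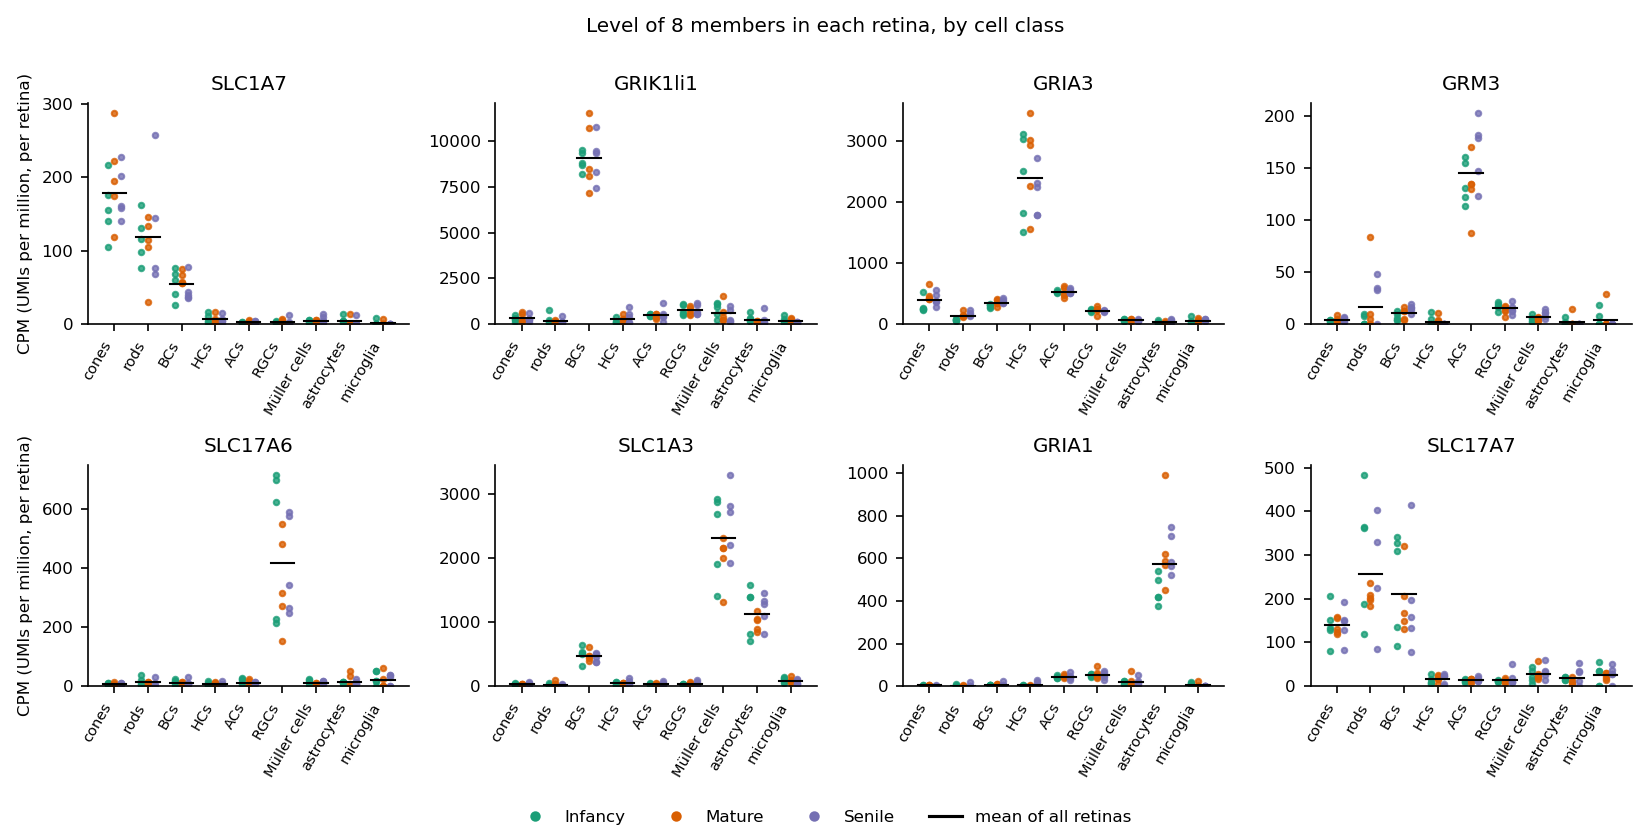
Level (CPM) of 8 genes in each class, 1 point per retina, coloured by stage. The points of GRIK1 in BCs, SLC17A6 in RGCs and GRIA3 in HCs stand apart from all other classes, and the stages are intermixed within most classes.

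Other genes of the pathway, auxiliary subunits, scaffolds and enzymes of the glutamate and glutamine cycle, were counted from a list of 45, of which 41 had UMIs and 35 were tested. The counts called higher and lower were 18 and 2 in ACs, 14 and 4 in RGCs, 12 and 2 in BCs, 5 and 19 in astrocytes, 9 and 7 in Müller cells, 8 and 7 in HCs, 8 and 16 in rods, 6 and 14 in cones, and 1 and 22 for microglial nuclei, against the backgrounds above. Among the 9 in Müller cells were SLC7A11, which exports glutamate in exchange for cystine (4.89), GLUL, the glutamine synthetase (4.45), and GLUD1, a glutamate dehydrogenase (4.36). GLUL ranged from 136 to 552 CPM in Müller cells and from 28.3 to 300.2 CPM in astrocytes.

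BCs held GRM6, the mGluR6 receptor of ON BCs (5.25), and NETO1, an auxiliary subunit of kainate receptors (4.54), beside GRIK1. NETO1 ranged from 324 to 506 CPM in BCs, above its highest value in any other class (179 CPM, in rods). HCs held the AMPA receptor scaffold GRIP1 (3.95) and the AMPA auxiliary subunit CACNG2 (3.21) beside GRIA3. ACs and RGCs shared the AMPA auxiliary subunit SHISA9 (3.89 and 3.42). Cones held ELFN1, the adhesion molecule that binds mGluR6 across the synapse (3.31), and the glutamine transporter SLC38A3 (3.18), and rods held ELFN2 (3.14).

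ON and OFF BCs were compared within 12 retinas that held at least 10 nuclei of each. An ON nucleus had at least 3000 UMIs and at least 2 of ISL1, TRPM1, GRM6, PCP2 and GPR179, and an OFF nucleus had at least 3000 UMIs and none of these, which gave 6101 and 1651 nuclei. The OFF group is thus set by the absence of ON markers. PRKCA, known from rod BCs and not used to split ON from OFF, was 1.24 higher in ON nuclei (log2, adjusted p = 3.32e-09). VSX1, another BC marker not used in this split, was also higher in ON nuclei (0.60, adjusted p = 9.97e-05). PRKCA, VSX1 and TRPM1 were among the markers that assigned nuclei to BCs. No gene was used as a positive marker of OFF BCs. Of 21 glutamate genes tested, 1 was called higher in ON BCs and 4 lower, where 3.37% and 4.15% of 8595 features were called, and the median log2 difference was -0.43 against 0.01 over all features.

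GRM5 was the gene called higher in ON BCs. It ranged from 792 to 1404 CPM over 14 retinas in ON nuclei (median 1025) and from 96.9 to 334 CPM over 12 retinas in OFF nuclei (median 176). The ranges were separate (log2 difference 2.75, SE 0.16, adjusted p = 4.41e-13). GRIK1 went the other way, from 2994 to 8963 CPM in ON nuclei (median 5657) and from 15876 to 37906 CPM in OFF nuclei (median 20831), again with no overlap (-2.04, SE 0.21, adjusted p = 8.97e-09). The lowest ON value still lay above the highest GRIK1 sample of any class other than BCs.

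SLC1A3 ranged from 178 to 575 CPM in ON nuclei (median 400) and from 493 to 1335 CPM in OFF nuclei (median 823), which overlapped at the edges (-1.47, SE 0.18). GRIA4 ranged from 348 to 908 CPM and from 724 to 1567 CPM (-1.04, SE 0.10). SLC17A8 was lower in ON nuclei as well (-1.26, SE 0.20), but its OFF values ran from 15.4 to 355 CPM with a median of 35.5 CPM, and the values of 293 CPM in Infancy 2 and 355 CPM in Mature 1 rest on 16 and 10 OFF nuclei. GRIN2A (-0.90, adjusted p = 1.29e-05), GRIK2 (-0.78), SLC1A1 (-0.55), GRIK5 (-0.51), GRM8 (-0.47), GRM7 (-0.43), GRIN2B (-0.35, adjusted p = 0.0078) and GRID1 (0.35) passed the p threshold but not the fold required. The GRM8 difference was not uniform. In Infancy 4 and 5, Mature 5 and Senile 5, with 213 to 329 OFF nuclei each, GRM8 was higher in ON nuclei. In the other retinas compared it was lower, with the widest gap in Infancy 2 (640 against 2065 CPM). Of 27 other pathway genes tested, the scaffold DLG1 (1.53) and the kainate auxiliary subunit NETO2 (1.03) were called higher in ON nuclei, and the AMPA auxiliary subunits CACNG2 (-1.14) and SHISA6 (-1.03) lower.

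Glycinergic and GABAergic ACs were compared within retinas by the glycine transporter SLC6A9 without GAD1, and by GAD1, the enzyme that makes GABA, without SLC6A9. GAD2 was listed with 0 UMIs and GAD1 was sparse (7.04 CPM in ACs), so that the GABAergic gate held 351 nuclei and the glycinergic gate 4826 nuclei in 14 retinas. A GABAergic nucleus with no GAD1 UMI is left out of the GABAergic gate, and enters the glycinergic gate if it holds an SLC6A9 UMI. Of 19 genes tested, 2 were called higher in glycinergic ACs and 2 lower, where 2.03% and 1.82% of 5318 features were called.

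The kainate subunit GRIK2 ranged from 477 to 1570.4 CPM over 15 retinas in glycinergic nuclei (median 1039) and from 269.9 to 1008 CPM over 14 retinas in GABAergic nuclei (median 483). The ranges overlapped, and GRIK2 was 1.14 higher within retinas on the log2 scale (SE 0.12, adjusted p = 1.9e-08). GRIK1 ranged from 298 to 1428 CPM in glycinergic nuclei (median 595) and from 12.6 to 795 CPM in GABAergic nuclei (median 166), again with overlap (1.02, SE 0.26, adjusted p = 0.0064). The means of both gates (621 and 293 CPM) are a few percent of the BC level (9074 CPM), so this difference is not read as one of expression. Whether free RNA gave these levels was not tested. The GRIK1 difference lay just past the fold required and fell below it, to between 0.88 and 0.97, without any one of Infancy 2, Infancy 5, Mature 1, Mature 2 or Senile 3.

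The genes called lower in glycinergic ACs were both metabotropic receptors. GRM3, which couples to inhibition of adenylyl cyclase, ranged from 31.3 to 117 CPM in glycinergic nuclei (median 73.5) and from 49.1 to 277.7 CPM in GABAergic nuclei (median 175), a log2 difference of -1.32 (SE 0.15, adjusted p = 4.99e-08). GRM5, which couples to phospholipase C, ranged from 100.4 to 244 CPM and from 205 to 665 CPM (medians 185 and 354), a log2 difference of -1.13 (SE 0.13, adjusted p = 1.16e-07). Both pairs of ranges overlapped.

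GRM4 (0.89, adjusted p = 0.0067), GRIK4 (0.83, adjusted p = 1.86e-05), GRIA1 (0.74, adjusted p = 0.024) and SLC1A1 (-0.93, adjusted p = 1.06e-05) passed the p threshold but not the fold required. SLC17A8, the vesicular glutamate transporter VGLUT3, had too few UMIs for the test, with 14.4 to 77.4 CPM in glycinergic nuclei (median 44.3) and 0 to 43 CPM in GABAergic nuclei (median 5.19). Of 26 other pathway genes tested, SHISA9 (3.44) and the scaffold SHANK3 (1.09) were called higher in glycinergic ACs and NETO2 (-1.06) lower.

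**Figure D4:**
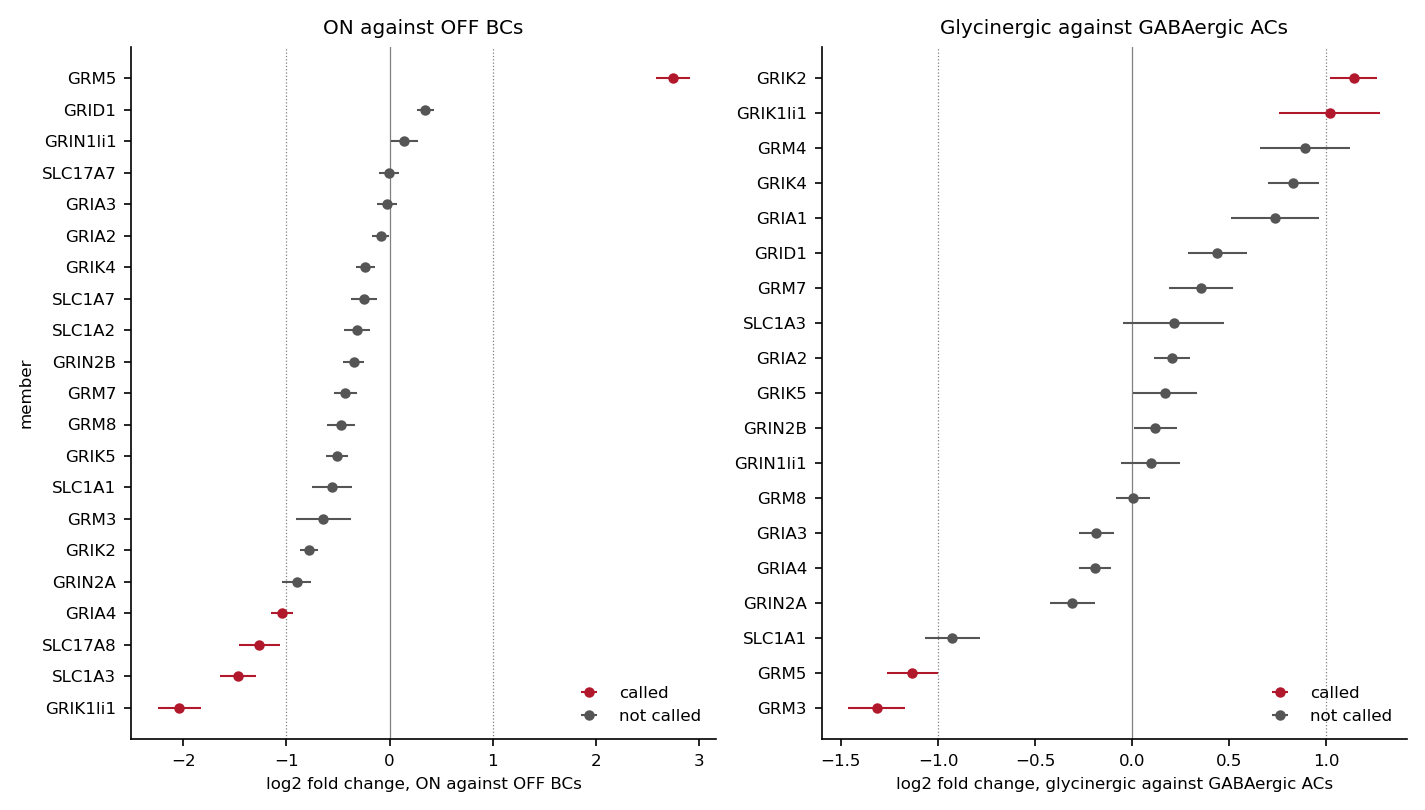
Log2 differences with SE bars for each gene tested between ON and OFF BCs (left) and between glycinergic and GABAergic ACs (right), with lines at the fold required for a call. GRM5 lies far to the ON side and GRIK1, SLC1A3, SLC17A8 and GRIA4 to the OFF side. On the right GRIK2 and GRIK1 lie past the line on the glycinergic side and GRM3 and GRM5 past the line on the GABAergic side.

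Across stages, no glutamate gene passed the main test in any class, though some did under alternatives given in the closing section. In each of the 3 comparisons 159 pairs of a gene and a class could be tested, in a fit per class with the Cell Ranger version as a term and calls at an adjusted p under 0.05. By edgeR's quasi-likelihood test 0 pairs were called for senile against infancy, 0 for mature against infancy and 0 for senile against mature. Over all features, calls for senile against infancy came to 1.86% in cones, 0.879% in rods, 1.31% in BCs, 0.297% in HCs, 1.17% in ACs, 1% in RGCs, 1.24% in Müller cells and 1.54% in astrocytes. For mature against infancy they came to 1.36, 0.497, 1.12, 0.0914, 0.732, 0.641, 0.984 and 1.05% in the same order of classes. For senile against mature they came to 0.0382% in rods, 0.0732% in BCs and 0.0894% in Müller cells and 0% in the other 5 classes. In microglia, where no glutamate gene had enough UMIs for the test, they came to 0.747, 0.249 and 0%. An unadjusted p under 0.05 was met by 11, 15 and 11 of the 159 pairs (6.92, 9.43 and 6.92%), against 8.78, 10.7 and 8.85% of all tests, and DESeq2 called 2, 2 and 0. The median size of the log2 change was 0.18 to 0.20, below the median SE of 0.27, so changes of that size were not detectable with 5 retinas per stage. Of the other pathway genes, 217 pairs per comparison were tested, of which 21, 19 and 25 had an unadjusted p under 0.05, and their smallest adjusted p was 0.065, 0.056 and 0.31.

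GRIA3 in photoreceptors came nearest to a call. In rods its level was 87.2, 59.0, 47.7, 84.0 and 60.4 CPM in Infancy 1 to 5, 139.7, 108.7, 136.8, 141.1 and 223.7 CPM in Mature 1 to 5, and 225.4, 177.9, 137.7 and 144.8 CPM in Senile 2 to 5. Every mature and senile value lay above every infant value. The log2 change was 1.08 (95% interval 0.60 to 1.56, adjusted p = 0.064) for mature and 1.21 (0.62 to 1.80, adjusted p = 0.060) for senile against infancy. DESeq2 called both (adjusted p = 0.038 and 0.047), as did edgeR without Mature 4 for the first (adjusted p = 0.049) and without Mature 5 for the second (adjusted p = 0.044).

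In cones GRIA3 was 523.7, 226.3, 247.9, 269.0 and 247.7 CPM in Infancy 1 to 5, 660.5, 409.2, 433.6, 466.8 and 415.6 CPM in Mature 1 to 5, and 552.2, 476.1, 368.0, 272.3 and 382.0 CPM in Senile 1 to 5. Infancy 1 lay among the mature values, and the other infant retinas lay below all of them. The change for mature against infancy was 0.72 (0.33 to 1.11, adjusted p = 0.11), which DESeq2 called (adjusted p = 0.040), and which was 0.95 without Infancy 1 (adjusted p = 0.0043). In HCs, where GRIA3 is highest, the stage means were 2390 ± 715, 2640 ± 741 and 2166 ± 396 CPM (SD, n = 5). The rod samples held 19 to 105 nuclei each. The GRIA3 mean was 127 CPM in rods against 2399 CPM in HCs, a few percent, so by the rule above it is not read as expression. The HC marker list stood at 43.6 CPM in rods against 2537 CPM in HCs. The part of free RNA in the rod values was not tested.

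The relative level of the NMDA subunits was followed in ACs, RGCs and BCs. In BCs GRIN2A made up 17.0, 17.7, 15.8, 13.4 and 12.3% of GRIN2A and GRIN2B UMIs in Infancy 1 to 5, 20.6, 15.3, 21.8, 12.3 and 10.1% in Mature 1 to 5, and 23.6, 30.2, 19.6, 35.6 and 18.2% in Senile 1 to 5. Every senile share lay above every infant share, while mature shares overlapped with both. The senile mean exceeded the infant mean by 10.2 percentage points (25.4 ± 7.34 against 15.2 ± 2.32%, SD, n = 5; 2-sided exact permutation p = 0.0079, the smallest that 5 against 5 allow, adjusted over 6 tests 0.048). The mature mean exceeded it by 0.79 points (exact p = 0.75).

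The adjusted value depended on the setting. Within Cell Ranger versions the difference was 10.0 and 11.6 points, with a permutation p of 0.01, the smallest this test allows, and 0.06 after adjustment. With nuclei required to carry 3 markers in place of 2 the difference was 7.78 points (exact p = 0.20). By level, GRIN2A in BCs was 69.6 ± 13.4, 82.1 ± 32.9 and 136.7 ± 52.3 CPM in infant, mature and senile retinas, and GRIN2B was 386 ± 30.5, 420 ± 26.1 and 393 ± 42.9 CPM (SD, n = 5). The log2 change of GRIN2A for senile against infancy was 0.99 (0.43 to 1.56, adjusted p = 0.14), which DESeq2 called (adjusted p = 0.040).

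All other classes had a higher mean GRIN2A share than BCs, and the summed markers of those classes were read in the BC samples. The HC list alone had no overlap between infant and senile BCs. Most of that list was ONECUT2li1, which averaged 36.4 of 49.8 CPM over all BC samples, while ONECUT1 averaged 1.82 CPM. The 8 HC markers summed to 35.2 to 44 CPM in infant, 36.1 to 61.7 CPM in mature and 51.6 to 78.7 CPM in senile BCs, with ONECUT3, LHX1 and ADRA2A at 0 in the last. In the same order the 8 AC markers summed to 124.7 to 275.6, 156 to 298.9 and 160.7 to 329.4 CPM, with GAD1 at 0 in senile BCs, and the 10 RGC markers to 35.7 to 249, 81.2 to 184 and 104 to 321 CPM, with POU4F3 at 0 in mature and senile BCs. The 8 cone markers, GUCA1C at 0 throughout, summed to 91 to 238, 116 to 265 and 135 to 464 CPM. Infant and senile BCs summed to 82.7 to 160.1 and 76.7 to 250.7 CPM for the 10 rod markers, 95.2 to 185.5 and 124 to 208 CPM for the 6 of Müller cells, 84.4 to 144 and 100.4 to 204 CPM for the 6 of astrocytes, and 19.6 to 35.7 and 20.6 to 38.6 CPM for the 12 of microglia. Their part in the GRIN2A share was not tested, nor was that of the mix of ON and OFF BCs, between which the log2 differences of GRIN2A and GRIN2B were -0.90 and -0.35. The gates held 107, 176, 97, 1064 and 922 ON nuclei and 9, 16, 20, 255 and 329 OFF nuclei in Infancy 1 to 5, and 153, 3, 65, 214 and 751 ON nuclei and 27, 0, 9, 41 and 246 OFF nuclei in Senile 1 to 5. In ACs the GRIN2A share was 71.8 ± 0.779, 70.6 ± 3.06 and 70.2 ± 4.7% and in RGCs 59.9 ± 5.59, 61.2 ± 7.16 and 62.7 ± 4.47% over the stages, with exact p from 0.36 to 0.73 and adjusted 0.75 for each of these 4 tests.

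**Figure D5:**
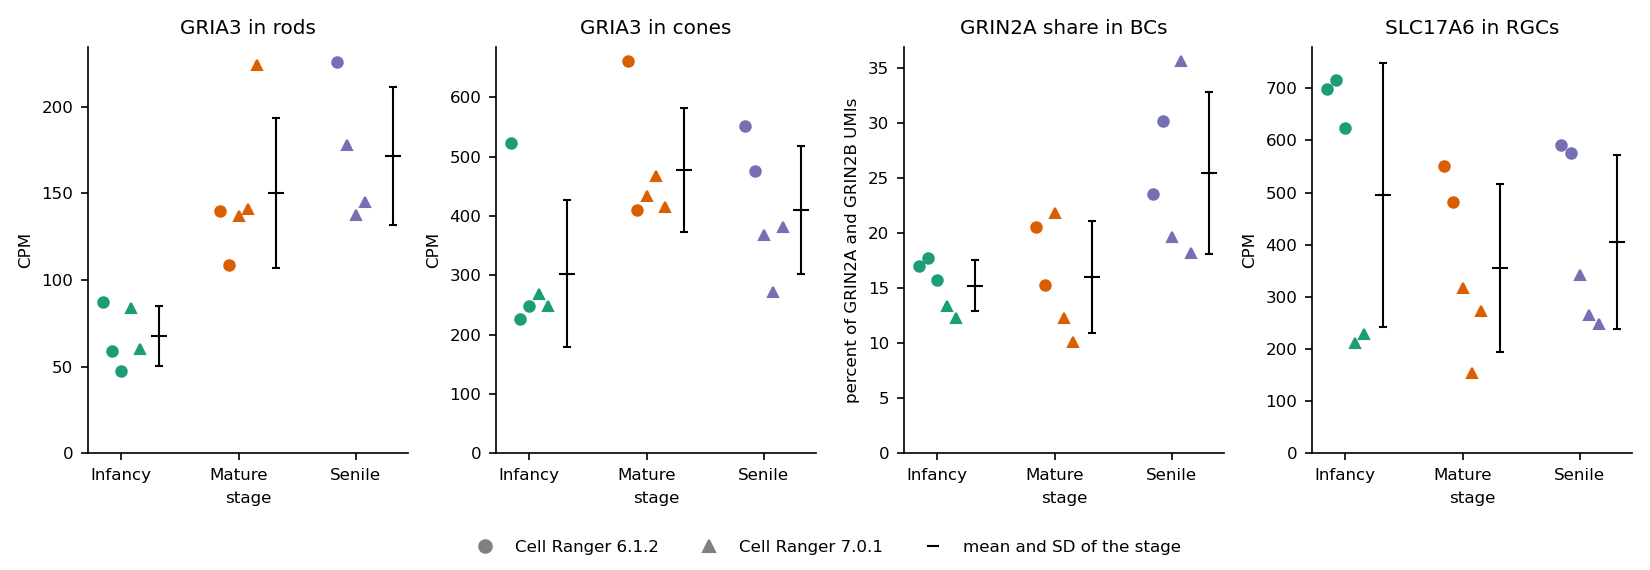
Values of each retina by stage, as circles for Cell Ranger 6.1.2 and triangles for 7.0.1: GRIA3 in rods and cones (CPM), the GRIN2A share in BCs (percent) and SLC17A6 in RGCs (CPM). Mature and senile GRIA3 values in rods lie above the infant ones, all senile GRIN2A shares lie above the infant ones, and SLC17A6 separates circles from triangles rather than stages.

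The version term of the same fits was read as a comparison of its own, added after the data had been seen, and called 11 pairs of a gene and a class higher and 32 lower. In retinas of version 7.0.1 against 6.1.2, 7 of 24 genes were higher and 3 lower in cones (background 14.3% and 12%), 1 and 5 of 25 in BCs (12.1% and 10.9%), 1 and 8 of 28 in ACs (15.6% and 16.4%) and 2 and 3 of 26 in RGCs (13% and 10.9%), at an adjusted p under 0.05. In Müller cells 11 of 21 were called, all of them lower (background 8.88% higher and 10.5% lower), in HCs 1 of 16, lower (2.93% and 7.2%), and in rods 1 of 9, lower (2.22% and 4.47%). SLC17A6 in RGCs was 482 to 715 CPM in the 7 retinas of version 6.1.2 and 154 to 343 CPM in the 8 of version 7.0.1, with no overlap (log2 difference -1.30, adjusted p = 2.75e-04). GRIN1 in RGCs was 106.03 to 238 and 32.1 to 105.7 CPM (-1.43, adjusted p = 0.0011) and SLC17A7 in BCs was 198 to 415 and 78.3 to 167 CPM (-1.23, adjusted p = 3.77e-04), each again with no overlap. Version, the polyA or total RNA label and anything else that differed between the 2 sets of libraries cannot be told apart. Each stage holds retinas of both versions, and the stage fits above hold the version constant, while the GRIN2A share was tested across versions and, as an alternative, within them.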

How the data were processed

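The authors sequenced nuclei of 15 TS retinas (10x Genomics) and deposited 1 matrix of raw UMI counts per retina, with features in rows and called barcodes in columns and no normalization. They used Cell Ranger on the genome TS_3.0. The submitters' processing notes name versions 5.0.1 and 7.0.1 and the matrix headers 6.1.2 and 7.0.1. Whether intronic reads were counted is not given in the sources used here.

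Barcodes with 200 to 6000 genes and at most 5% mitochondrial UMIs were kept and gated by marker likelihood (at least 2 markers, a likelihood ratio of at least 100 over the next class, free RNA share 0.1). Nuclei better fitted by a mixture of 2 classes were left out, and no doublet caller was run. Counts were summed per retina and class with at least 10 nuclei and tested with edgeR 4.0.16 (R 4.3.3, limma 3.58.1; TMM, filterByExpr, quasi-likelihood test), with retina as a block between classes and gates and the Cell Ranger version as a term between stages. P-values were adjusted by Benjamini-Hochberg over all features tested in a fit. GRIN2A shares were compared by exact permutation (Python 3.11.15, scipy 1.17.1), and within-version p-values permute stage within version. DESeq2 1.42.0 was an alternative, and the other alternatives stand in the closing section. The model of the study also holds sex, which the labels used here do not give. The fits were tested on simulated data. A further gate of ACs is not reported here.

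Genes and lists were chosen with earlier results of these data known. Every gene found is named, and values by retina are given for the gene that led each class by log2 fold change among the genes called higher, for those called between BC or AC gates, and for GRIA2, GRIK1, GRIN2A and GRIN2B. GRIA3 in rods and cones was added for its calls under alternatives. At most 5 other pathway genes are named per direction. The genome build of the annotation was not used here, so no coordinates or sequences are given.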

Additional observations from a re-analysis of the deposited data

Results flagged for a closer look

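Within the stages, 84 groups of 4 or 5 retinas were screened for a retina far from its group by Dixon's criterion, which chance meets in about 1 of 20 groups, and 5 were found. GRIA3 in rods was 223.7 CPM in Mature 5, against 108.7 to 141.1 CPM in the other mature retinas. GRIA3 in cones was 523.7 CPM in Infancy 1, against 226.3 to 269 CPM in the other infant retinas, and 660.5 CPM in Mature 1, against 409.2 to 466.8 CPM in the other mature retinas. The GRIA2 share of the AMPA subunit UMIs in ACs was 16.5% in Mature 2, against 11.6 to 13.0% in the other mature retinas. The same share in HCs was 5.94% in Senile 3, against 2.89 to 3.56% in the other senile retinas. No cause was tested for any of these values.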

How the results depend on the processing

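Of the 164 calls between classes, 154 still passed both thresholds with DESeq2, 156 with RLE size factors, 160 with no filter on low counts, 158 with 3 markers required, 126 with mixed nuclei kept and 164 with LINC-FRMD8-1, which took 12.1 to 21.2% of the UMIs of a library, left out, and 156 to 163 did with a retina left out. No call changed sign, and the counts of calls stayed within 1.5 times under these settings.

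By stage, the 0 calls for senile against infancy became 2 with DESeq2 and 8 with no filter, and from 0 to 1 with a retina left out (GRM5 in HCs without Infancy 5, GRIA3 in rods without Mature 5). For mature against infancy they became 2 with DESeq2, 2 with no filter and 0 to 2 with a retina left out (GRIA3 in cones without Infancy 1, GRIA3 in rods and GRID1 in BCs without Mature 4). For senile against mature they became 2 with no filter. Without a filter, the 8 were GRIN2A, GRM3 and GRM8 in BCs and GRIK1 in HCs, higher in senile retinas (log2 0.91, 1.07, 0.62 and 1.24), and GRM7 in BCs, GRIK2 in ACs and Müller cells and GRIK1 in microglia, lower (-0.39, -0.50, -0.70 and -2.11). GRIK1 averaged 270 CPM in HCs and 149 CPM in microglia against 9074 CPM in BCs, a few percent. By the rule given in the Results these calls of GRIK1 are not read as expression. The shares of all features called under these settings are not given here, so the counts are not read as particular to the glutamate genes.

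Between ON and OFF BCs, 2 genes in place of 1 were called higher with no filter. Between AC gates, 6 were called higher and 1 lower with no filter, and 1 to 3 higher with a retina left out. The count was 1 without Infancy 2, Infancy 5, Mature 1, Mature 2 or Senile 3, where GRIK1 fell below the fold required. Shares of all features called are not given for these settings either.

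The GRIN2A share in BCs for senile against infancy was 10.8 points within Cell Ranger versions, 7.78 with 3 markers required, 9.63 with mixed nuclei kept and 10.2 with the replicate block, none of which passed after adjustment (0.06, 0.51, 0.14 and 0.38), and 7.65 to 12.01 points with a retina left out (adjusted p from 0.048 to 0.24). The replicate block flips the sign of the difference between same-numbered retinas, and in BCs all these differences were positive. Its p was thus the smallest it allows, as was the within-version p. With the other tests as they were, neither could pass after adjustment, so these 2 settings cannot decide the question. For mature against infancy the difference in BCs was -1.68 points with 3 markers required, and -0.66 to 2.27 with a retina left out. In RGCs it was -0.82 to 3.61, and for senile against infancy in ACs -2.9 to 0.33, with a retina left out. The cause was not tested.

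Replicate numbers were not taken to pair the retinas, since in no class did every same-numbered pair correlate over 0.1 (4 to 13 pairs of 13 or 15 did, and 3 to 7 samples of a class were closest to their own number). Same-numbered retinas were still more alike, with a median correlation of 0.0509 (rods) to 0.468 (ACs) against -0.0312 and -0.357 for other numbers. Numbers 1, 2, 4 and 5 each hold a single Cell Ranger version, while pairs of other numbers mix both versions. Pairs of retinas within a version were not compared on their own, so the part of version in these correlations was not tested. With the replicate block in the stage fits the calls stayed at 0 for the 3 comparisons. Rods, astrocytes and microglia have the fewest UMIs, and in microglia no glutamate gene could be tested by stage.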
